A study of Drosophila melanogaster with 38 samples.

Results

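OGA, the enzyme that removes the sugar O-GlcNAc from proteins, was mapped on chromatin of Drosophila melanogaster larvae, and the OGA peaks described here are those on the autosomes that lie far from any O-GlcNAc peak. An OGA peak was taken as far when the gap between its nearest edge and that of every O-GlcNAc peak on the same chromosome exceeded 50 kb, leaving out X, the mitochondrial sequence and the sequences named Het, which hold heterochromatin. The rule found 532 far peaks among 2878 autosomal OGA peaks (18.5%, Wilson 95% interval 17.1 to 19.9%) and 3534 OGA peaks in all. The remaining 2346 autosomal OGA peaks, called near peaks below, had an O-GlcNAc peak within 50 kb. Positions alone chose the far peaks, and no signal value entered the choice.

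O-GlcNAc is a single N-acetylglucosamine on serine or threonine residues of proteins in the nucleus and cytoplasm. The transferase OGT adds it and the hydrolase OGA takes it off. In Drosophila the gene for OGT is super sex combs, a member of the Polycomb group of chromatin repressors, and the Polycomb protein Polyhomeotic is a known substrate. An OGA peak marks DNA that came down with the enzyme, and it may or may not lie where the sugar was found.

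The 2 OGA ChIP-seq libraries were 1 of OGA-null larvae, which carry an OGA knockout in the Oregon R background, and 1 of wild-type (WT) Oregon R larvae. Both used an antibody, MEGA5, raised against the full-length fly protein, and both share 1 deposited list of intervals without a score. OGA-null larvae make no target for the antibody, but peaks called in their library cannot be told apart from those of WT larvae. The O-GlcNAc list of 1883 peaks came from 32 O-GlcNAc-seq libraries of OGA-null and WT larvae, fed 150 uM Ac4GalNAz, an azide-bearing sugar, for 36 h and then chased without it for 0 to 36 h. Sequencing depth per library is unknown from these lists. With 1 list there is no spread between samples, so the values below are descriptions set side by side without a test. Intervals are 95% binomial ones and cover counting error only, and neighbouring peaks are not independent, so these intervals are too narrow.

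The far peaks were spread over all autosomal arms, in unequal shares. Arm 2R held 158 of them, which was 22.5% of its 701 OGA peaks (Wilson interval 19.6 to 25.8%). Arm 2L held 127 of 652 (19.5%, 16.6 to 22.7%), 3L held 122 of 733 (16.6%, 14.1 to 19.5%) and 3R held 113 of 779 (14.5%, 12.2 to 17.2%). Chromosome 4, the small dot chromosome, carried 13 OGA peaks, and 12 of them were far; it held 1 O-GlcNAc peak.

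Far OGA peaks were scarce for the territory open to them. Of the span covered by either list on the autosomes, 44.2 Mb (45.4%) lay more than 50 kb from O-GlcNAc and 53.1 Mb lay within 50 kb. The far territory held 12.0 OGA peaks per Mb and the near territory 44.2 per Mb, a ratio of 0.272 (exact binomial interval 0.247 to 0.299). The ratio was below 1 on each of the 4 major arms, at 0.273 on 2L, 0.487 on 2R, 0.216 on 3L and 0.201 on 3R. On chromosome 4 it was 0.996, with 1 near peak behind it.

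Within the far territory the density fell further with distance. It was 13.7 peaks per Mb at gaps of up to 100 kb (271 peaks), 12.9 per Mb between 100 and 200 kb (194 peaks) and 7.14 per Mb beyond 200 kb (67 peaks). Of the far peaks, 15.6% lay within 10 kb past the 50 kb border, where 11.9% of the far territory lay.

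The border at 50 kb cut through a continuous range of gaps. The 3 far peaks closest to it lay 50064, 50121 and 50172 bp from O-GlcNAc, on 2R at 20025104 to 20025112, on 3R at 16732697 to 16732717 and on 2R at 7853017 to 7853022. They were 9, 21 and 6 bp wide. The 3 near peaks closest to it lay at 49965, 49840 and 49737 bp, on 3R at 2283416 to 2283421, on 2L at 6095328 to 6095391 and on 2R at 13554298 to 13554339, with widths of 6, 64 and 42 bp. All coordinates are those of the deposited lists, counted from 1, in the dm3 build that the submitters' processing notes name. No gene annotation of that build was used here, so peaks are given by position alone.

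The far peaks that lay farthest from O-GlcNAc were on chromosomes 4 and 3L. On chromosome 4, the peak at 39187 to 39195 (9 bp) was 1013 kb away and the one at 98529 to 98571 (43 bp) was 954 kb away. On 3L, the peak at 13494846 to 13494906 (61 bp) was 772 kb from O-GlcNAc, and a pair of peaks at 11956632 to 11956646 and 11957246 to 11957294 was 410 and 411 kb away. The 3L peak at 13494846 was also the most isolated far peak, with its nearest OGA neighbour 460 kb away.

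Widths of far and near peaks overlapped almost wholly. Far peaks had a median width of 13 bp (interval of the median 11 to 16 bp), with quartiles of 4 and 35 bp and a range of 1 to 263 bp. Near peaks had a median of 16 bp (15 to 17 bp), with quartiles of 5 and 37 bp and a range of 1 to 280 bp. Most peaks of both kinds were thus much narrower than a sheared chromatin fragment. The program that set their edges is not named in the labels.

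The far median was the lower one on each of the 4 major arms, by a few bases. It was 13 bp against 15 bp on 2L, 16 bp against 17 bp on 2R, 15 bp against 17 bp on 3L and 11 bp against 15.5 bp on 3R. The intervals of the medians overlapped on every arm. Peaks of 5 bp or less made up 29.9% of far peaks and 28.1% of near peaks, and peaks over 50 bp made up 14.1% and 15.9%.

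The width moved little with distance from O-GlcNAc, apart from peaks that overlapped it. The median was 10 bp for the 67 peaks beyond 200 kb (interval 9 to 18 bp). It was 13 bp between 100 and 200 kb (10 to 20 bp) and 15 bp between 50 and 100 kb (11 to 19 bp), so these intervals overlapped. Among near peaks it was 16 bp from 10 to 50 kb and from 1 to 10 kb, and 15 bp within 1 kb. The 77 OGA peaks that overlapped an O-GlcNAc peak had a median of 29 bp (17 to 41 bp), but a wider peak has more room to overlap.

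**Figure D1:**
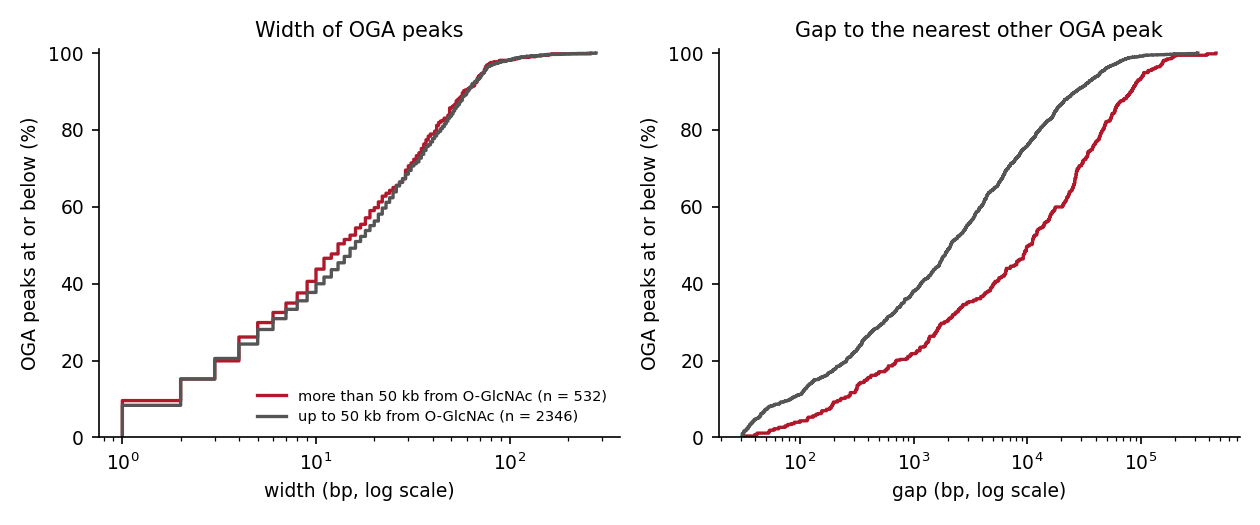
Cumulative share of autosomal OGA peaks (%) by width (left, bp, log scale) and by gap to the nearest other OGA peak (right, bp, log scale), for the 532 peaks more than 50 kb from O-GlcNAc (red) and the 2346 peaks up to 50 kb from it (grey). The width curves lie close together, with medians of 13 and 16 bp, whereas the gap curves stand apart, with medians of 10431 and 2117 bp.

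Wide peaks were found far from O-GlcNAc too. The 10 far peaks over 100 bp made up 1.88% of the total, against 40 near peaks or 1.71%. The widest far peak, 263 bp on 2R at 19422968 to 19423230, was 124 kb from O-GlcNAc and belonged to a cluster of 4 peaks. The next were a 165 bp peak on 3L at 1226384 to 1226548, a 159 bp peak on 2L at 15685318 to 15685476 and a 146 bp peak on 3R at 27666896 to 27667041. The 3L and 2L peaks of these stood alone, 26.3 and 40.3 kb from the nearest OGA peak, and the 3R peak had a neighbour at 308 bp.

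Of the 10 widest far peaks, 4 lay in the part of an arm nearest the centromere, on 2R, 3L and 2L. That part held 34.4% of all far peaks. On 2R, a peak of 136 bp lay at 3131834 to 3131969 and one of 126 bp at 698075 to 698200, both inside clusters described below. On 3L a peak of 113 bp lay at 21727501 to 21727613. On 2L the peak at 23010596 to 23010705 (110 bp) was the last interval of either list on that arm, and peaks of 106 and 102 bp lay at 4182153 to 4182258 and 5182838 to 5182939.

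Far peaks had fewer OGA neighbours. Another OGA peak lay within 10 kb of 264 of the 532 far peaks (49.6%, Wilson interval 45.4 to 53.9%), against 1780 of the 2346 near peaks (75.9%, 74.1 to 77.6%). Within 1 kb the shares were 21.8 and 38.1%, and within 100 bp 4.32 and 11.2%. The median gap to the nearest OGA peak was 10431 bp for far peaks and 2117 bp for near peaks. No pair of OGA peaks in the whole list was closer than 31 bp.

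The difference had the same direction on each major arm. Far peaks with a neighbour within 10 kb made up 48.8% on 2L, against 73.1% of near peaks there. On 2R the shares were 58.9 and 74.2%, on 3L 39.3 and 78.4%, and on 3R 45.1 and 77.2%. On chromosome 4, 10 of the 12 far peaks had one. By distance class the share was 32.8% beyond 200 kb from O-GlcNAc, 54.1% from 100 to 200 kb and 50.6% from 50 to 100 kb. Among near peaks it was 68.7% from 10 to 50 kb, 82.2% from 1 to 10 kb and 83.1% within 1 kb, and 57.1% for peaks that overlapped O-GlcNAc. A lower density of OGA peaks leaves fewer neighbours, and how much of the difference the density of 12.0 against 44.2 per Mb accounts for was not tested.

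A larger share of far peaks stood alone. With peaks chained into clusters where the gap was at most 10 kb, 268 of 532 far peaks (50.4%) were single, against 566 of 2346 near peaks (24.1%). Clusters of 3 or more peaks held 157 far peaks (29.5%, Wilson interval 25.8 to 33.5%) and 1389 near peaks (59.2%, 57.2 to 61.2%). For clusters of 5 or more the shares were 9.21 and 39.3%. No OGA peak lay within 50 kb of 95 far peaks (17.9%) and 90 near peaks (3.84%), and none lay within 100 kb of 35 far peaks and 18 near peaks.

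Far and near peaks seldom shared a cluster. Far peaks lay in 366 clusters, singles included, and 357 of these held no near peak. The rule largely sets this, because only a cluster that crosses the 50 kb border can hold both kinds. Of the 357, 268 were single peaks, which cannot be mixed, 53 were pairs, 36 had 3 or more peaks and 6 had 5 or more. The largest cluster of far peaks had 10 peaks, and the largest cluster of near peaks had 37.

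The most isolated far peaks were narrow, apart from the 61 bp peak on 3L at 13494846. The others were on 3R at 10143929 to 10143938 (10 bp, nearest OGA peak at 383 kb) and at 3732532 to 3732538 (7 bp, 379 kb), on 2L at 14158104 to 14158114 (11 bp, 203 kb) and on 3L at 12819166 to 12819167 (2 bp, 195 kb). Single far peaks had a median width of 12 bp (interval 10 to 14 bp, n = 268), paired ones 16 bp (9 to 27 bp, n = 107) and those in clusters of 3 or more 20 bp (12 to 28 bp, n = 157). Among near peaks the medians were 15, 16 and 17 bp. In the part of an arm nearest the centromere, set out below, the far medians did not rise in this order, at 20.5, 17.5 and 21 bp. In the rest of the arms they were 10, 16 and 16.5 bp.

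Of the 6 clusters with 5 or more far peaks, 4 lay toward the centromere end of 2R, 1 at that of 3L and 1 at the opposite end of chromosome 4. The largest, on 2R at 2316130 to 2346764, spread 10 narrow peaks of 3 to 28 bp over 30.6 kb, 173 to 198 kb from O-GlcNAc. Its peaks covered 0.441% of its length and were 422 to 9647 bp apart. The cluster on 3L at 24441089 to 24450608 was denser, with 9 peaks of 2 to 74 bp in 9.52 kb and spacings of 89 to 4248 bp.

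The other 3 on 2R spanned 3.21 to 11.6 kb. At 688540 to 700176 lay 7 peaks of 10 to 126 bp, of which 6 crowded into the last stretch from 698075 on, with spacings of 116 to 843 bp. At 3131275 to 3137393 lay 6 peaks of 1 to 136 bp within 6.12 kb. At 993910 to 997116 lay 5 peaks of 5 to 69 bp within 3.21 kb. Peaks covered 3.33, 4.80 and 4.65% of these clusters. On chromosome 4, 5 peaks of 13 to 53 bp lay at 1299007 to 1315718, spread over 16.7 kb and 247 to 263 kb from O-GlcNAc.

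**Figure D2:**
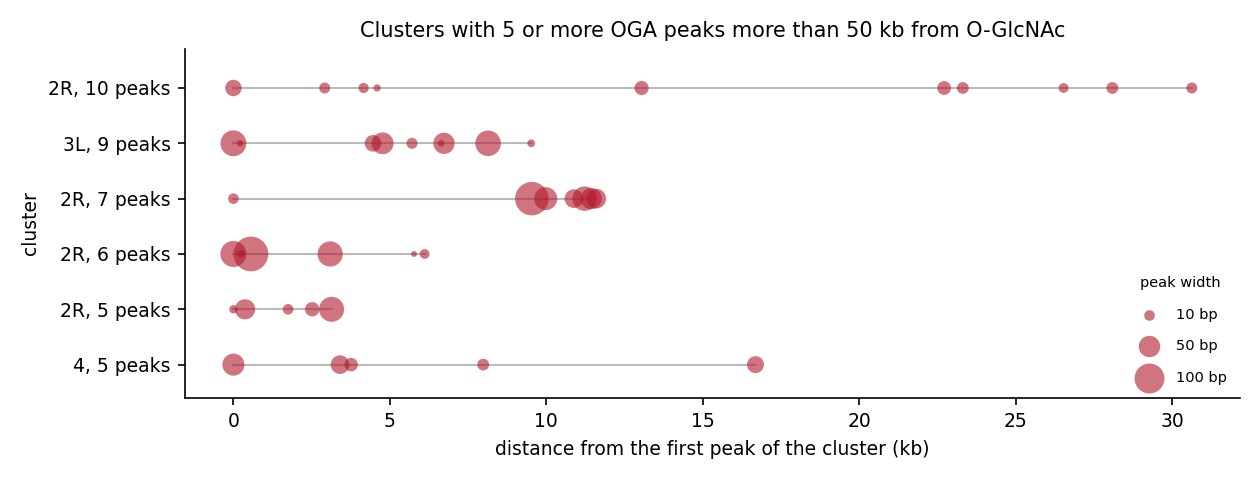
Each row is 1 of the 6 clusters with 5 or more far OGA peaks, and each point is a peak at its distance from the first peak of the cluster (kb), with an area that grows with its width (bp). The 2R cluster of 10 peaks, none over 28 bp, spans 30.6 kb, the chromosome 4 cluster 16.7 kb and the other 4 between 3.21 and 11.6 kb.

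Far peaks lay toward the centromere on 3 of the 4 major arms. With each arm taken as the span of both lists and cut into 5 equal parts, the part nearest the centromere held 183 of the 532 far peaks (34.4%, Wilson interval 30.5 to 38.5%) and 440 of the 2346 near peaks (18.8%, 17.2 to 20.4%). It held 43.8% of its length as far territory, about the share of all autosomes, 45.4%. In fly arms this end runs into the repeat-rich heterochromatin around the centromere. By distance class, the part nearest the centromere held 38.0% of far peaks from 50 to 100 kb and 37.6% from 100 to 200 kb. Beyond 200 kb it held 7 of 67 (10.4%, 5.15 to 20.0%), so the higher share was not seen there. Among near peaks the share was 25.8% from 10 to 50 kb, 13.0% from 1 to 10 kb and 14.6% within 1 kb. For peaks that overlapped O-GlcNAc it was 18.2%.

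The shares by arm were 33.1% of far and 20.4% of near peaks on 2L, 42.4 and 29.7% on 2R, and 43.4 and 14.6% on 3L. On 3R they were 16.8 and 12.5%, with intervals that overlapped (11.0 to 24.8% and 10.2 to 15.2%). On chromosome 4, 2 of 12 far peaks lay in the part nearest the centromere and 10 in the part farthest from it. The 183 peaks were thus mainly those of 2R (67), 3L (53) and 2L (42).

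Per length of far territory, the part nearest the centromere was again the densest on 3 arms. That part of the 4 major arms together held 21.9 far peaks per Mb and the rest of these arms 9.76 per Mb, while near territory held 40.3 and 45.3 near peaks per Mb. From the centromere outward, the 5 parts of the 4 arms together held 21.9, 5.83, 9.03, 11.3 and 14.1 far peaks per Mb. Pooled like this, the density was lowest in part 2 and higher again toward the tip. By arm the lowest was part 2 on 2L and 3R (5.33 and 4.86 per Mb), part 3 on 3L (4.01) and part 4 on 2R (5.69). In the part nearest the centromere and in the rest, the far values on 2R were 49.2 and 14.2 per Mb. They were 23.5 and 7.30 per Mb on 3L and 20.8 and 9.74 per Mb on 2L. On 3R the order was the other way, with 7.26 and 9.28 per Mb. The near density was also higher in the part nearest the centromere on 2R, at 57.6 against 37.4 per Mb. It was lower there on 2L (41.9 against 43.6), 3L (33.9 against 51.8) and 3R (28.0 against 47.9). On 2R the far density in the part nearest the centromere came to 0.853 times that of the near territory beside it, against 0.380 times in the rest of the arm.

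Taken over the 4 major arms, the far density was highest at the very end of the assembled arms. In the first 1 Mb from the centromere end of the 4 major arms it was 44.8 peaks per Mb (73 peaks), in the next 1 Mb 19.3 per Mb, from 2 to 3 Mb 22.3 per Mb and from 3 to 4 Mb 10.9 per Mb. It was 7.84 per Mb from 4 to 8 Mb, 7.15 per Mb from 8 to 12 Mb and 11.5 per Mb beyond. By arm, the first 1 Mb held 74.7 far peaks per Mb on 2R, 64.5 on 2L and 41.6 on 3L, but 1 peak, or 2.55 per Mb, on 3R. Near peaks were dense at that end too, with 75.1 per Mb of near territory in the first 1 Mb, 32.1 per Mb in the next and 49.0 per Mb beyond 12 Mb.

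**Figure D3:**
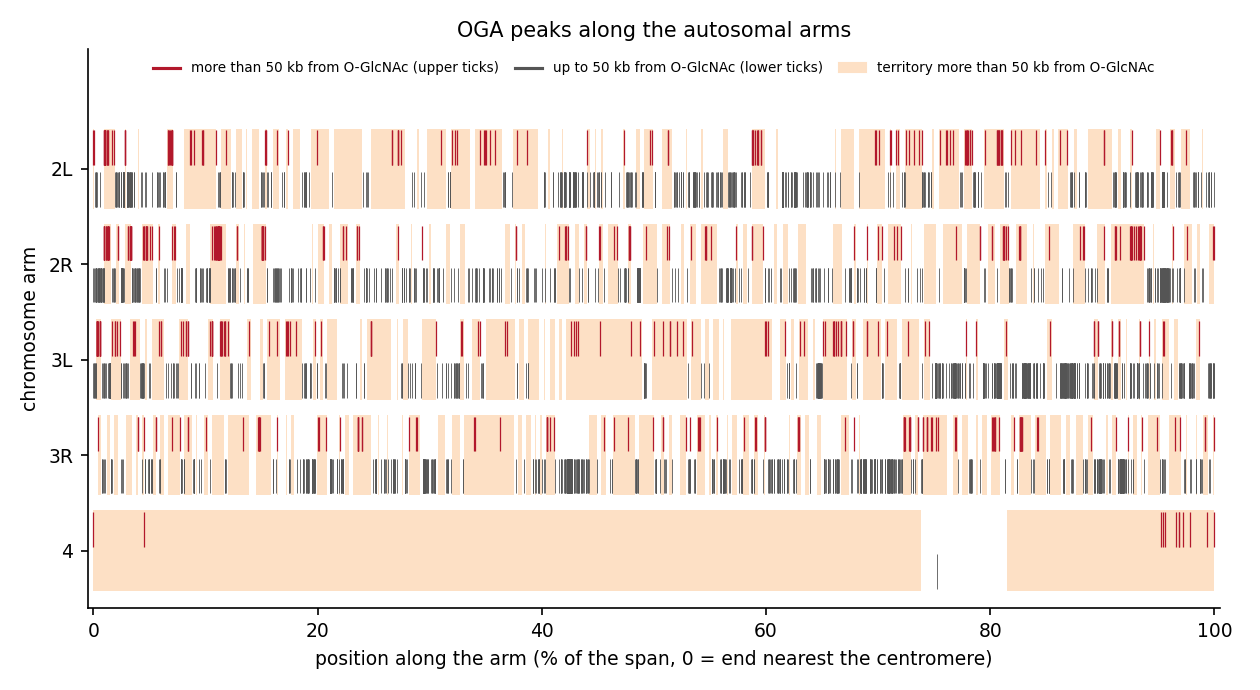
OGA peaks along each autosomal arm, as a percentage of the span of both lists with 0 at the end nearest the centromere. Red upper ticks are the far peaks, grey lower ticks the near peaks, and shading marks territory more than 50 kb from O-GlcNAc. Red ticks crowd at the left of 2L, 2R and 3L, and 10 of the 12 on chromosome 4 sit in the last part at the right.

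**Figure D4:**
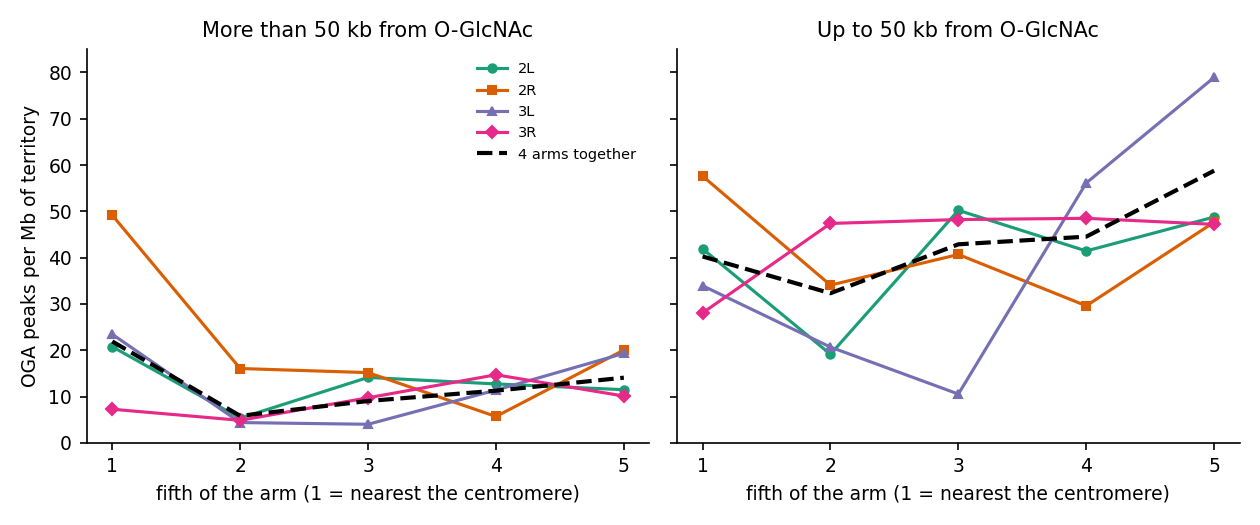
OGA peaks per Mb of territory in each of 5 equal parts of the 4 major arms (1 is nearest the centromere), for territory more than 50 kb from O-GlcNAc (left) and up to 50 kb from it (right); lines are arms and the dashed line all 4 together. On the left the first part is the highest on 2R, 3L and 2L (49.2, 23.5 and 20.8 per Mb) and not on 3R (7.26 per Mb).

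Far peaks near the centromere had a higher median width than the other far peaks on 2L, 2R and 3L, and a lower one on 3R. Over all arms their median width was 21 bp (interval 13 to 28 bp, n = 183), against 11 bp (9 to 14 bp, n = 349) in the rest of the arms. Peaks over 50 bp made up 20.2 and 10.9% of these sets, and peaks of 5 bp or less 21.3 and 34.4%. For near peaks the medians were 18 bp (15 to 21 bp) and 16 bp (14 to 17 bp).

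The far medians near the centromere were 27 bp on 3L, against 12 bp in the rest of that arm, 21 bp against 10 bp on 2R and 21.5 bp against 11 bp on 2L. On 3R the median was 8 bp (n = 19), against 12 bp. Near peaks in the part nearest the centromere had medians of 12 bp on 3L, 22 bp on 2R, 15 bp on 2L and 17 bp on 3R. In the rest of these arms the near medians were 17, 14.5, 15 and 15 bp, so on 2R near peaks were wider toward the centromere too. Single far peaks near the centromere had a median of 20.5 bp (interval 13 to 28 bp, n = 66) and single far peaks elsewhere 10 bp (9 to 13 bp, n = 202). For single near peaks the medians were 19 bp (14 to 25 bp, n = 118) and 14 bp (11 to 17 bp, n = 448).

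Pooled over the arms, far peaks near the centromere also had more neighbours than those elsewhere. A neighbour within 10 kb was found for 63.9% of far peaks near the centromere, against 73.2% of near peaks there. In the rest of the arms the shares were 42.1% of far and 76.5% of near peaks. On 2R near the centromere they were 80.6% of far peaks (Wilson interval 69.6 to 88.3%) and 83.2% of near peaks (76.7 to 88.2%), so the intervals overlapped widely. On 3R the order was the other way: 36.8% of far peaks near the centromere had such a neighbour, against 46.8% of far peaks in the rest of the arm, and 5.26 against 26.6% lay in clusters of 3 or more. Of the 37 clusters with 3 or more far peaks, 17 lay in the part nearest the centromere, and so did 5 of the 6 clusters with 5 or more.

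The OGA peaks on Het sequences, which hold heterochromatin beyond the assembled arms, are not among the far peaks. Their 424 peaks had a median width of 18 bp (interval 15 to 21 bp), against 21 bp for far peaks near the centromere, and 76.4% had a neighbour within 10 kb, against 63.9%. Peaks of 5 bp or less made up 21.5% of them, against 21.3% of far peaks near the centromere and 28.1% of all near peaks. Near peaks in the part nearest the centromere were close to the Het peaks too. Their median width was 18 bp, 73.2% had a neighbour within 10 kb and 24.1% were 5 bp or less. Whether mapping to repeated sequence contributes near the centromere was not tested.

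In windows of 100 kb, far peaks were thin with a few dense spots. They fell into 266 windows, of which 155 held 1 far peak. The 19 windows with 5 or more held 138 far peaks (25.9%), and 11 of the 19 lay in the part of the arm nearest the centromere. The richest was on 2R from 2300001 to 2400000, with 13 far peaks, followed by 2L from 22700001 to 22800000 with 12 and 2R from 200001 to 300000 with 11, beside 3 near peaks. The windows on 2R from 3100001 to 3200000 and on 3L from 24400001 to 24500000 held 10 each, on 3L beside 4 near peaks.

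All 5 of these windows were in the part of the arm nearest the centromere. Of 243 windows that lay wholly in far territory, 116 (47.7%) held an OGA peak, 11 (4.53%) held 5 or more and 127 held none. Of 248 windows wholly within 50 kb of O-GlcNAc, 228 (91.9%) held an OGA peak and 122 (49.2%) held 5 or more.

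Seen from the O-GlcNAc list, far peaks fill the long stretches between its peaks only in part. Far territory lay in 282 stretches between O-GlcNAc peaks or at the ends of an arm, and 165 of them (58.5%) held a far OGA peak. The stretches with far peaks were the longer ones, with a median of 246 kb against 150 kb for the 117 without. Only the part of a stretch more than 50 kb from O-GlcNAc can hold a far peak, so longer stretches have more room for one. Of the 165, 59 held 1 far peak and the most populated held 18. Between O-GlcNAc peaks, 10 stretches with 10 or more held 128 far peaks in all. The stretch at the end of chromosome 4 from 1052502 to 1344000 held another 10.

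The 5 longest stretches between O-GlcNAc peaks held fewer far OGA peaks per Mb than all far territory together. On 3L, 1739 kb without O-GlcNAc from 12528300 to 14267365 held 7 far peaks, or 4.27 per Mb of far territory. On 3R, 1332 kb from 9190785 to 10522970 held 3, or 2.43 per Mb. The stretches on 3L of 989 kb from 9685875 and of 855 kb from 11546300 held 3 and 6 far peaks, and that on 2L of 787 kb from 16601975 held 6. All 5 were below the 12.0 per Mb of all far territory, at 2.43 to 8.73 per Mb. Stretches slightly shorter than these differed. One of 734 kb on 3L from 15289890 held 3.16 per Mb, and one of 725 kb on 2R from 18821951 held 18 far peaks, or 28.8 per Mb. Among stretches at the end of an arm the longest, 1013 kb on chromosome 4 from 39187 to 1052481, held 2 far peaks, or 2.08 per Mb.

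The O-GlcNAc peaks nearest to far OGA peaks had signal in the same range as the other O-GlcNAc peaks. There were 209 such peaks on the autosomes, set against the 1452 other autosomal O-GlcNAc peaks, and the signal is the authors' combined value of replicates 1 and 2 for each genotype and time, so no spread between replicates is known. Their median width was 40 bp, against 35 bp. In OGA-null larvae at the start of the chase (0 h) their median signal per base was 23.0 (quartiles 22.0 and 24.7), against 22.7 (21.7 and 24.0). In WT larvae it was 33.5 (30.8 and 37.7), against 32.6 (30.1 and 35.9). The quartile ranges overlapped in both genotypes.

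The medians of the share of that signal left lay within a few percentage points of each other. After 12 h of chase the median O-GlcNAc peak next to far OGA peaks kept 64.7% in OGA-null larvae, against 62.5% for the other O-GlcNAc peaks, and 16.4% in WT larvae, against 16.3%. After 24 h it kept 13.0% in OGA-null larvae, against 12.2%, and 3.02% in WT larvae, against 3.07%. The labels do not state the scaling of the columns. Each share sets a later column against the column for the start of the chase, so its size depends on that scaling. For this reason only peaks of the same genotype and time were compared with each other.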

How the data were processed

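Groups and replicate numbers of the 38 libraries were taken from the titles in the labels. The authors deposited 1 list of OGA intervals for both ChIP-seq libraries, without a score, and an O-GlcNAc list with 16 columns of signal that, per the file headers, each combine replicates 1 and 2 of a genotype and chase time. Tools and builds listed in the submitters' processing notes are bedtools 2.17.0, SAMtools, sacCer3 and dm3, with no role stated. Aligner, peak caller and scaling are not given in the sources at hand.

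Gaps between nearest edges, neighbours among all OGA rows, clusters (gap up to 10 kb), windows of 100 kb from position 1, and far territory base by base within the span of both lists were computed with Python 3.11.15, numpy 2.4.6, pandas 2.3.3 and scipy 1.17.1, and tested on simulated lists. Signal was divided by width. The position toward the centromere uses the known orientation of the arms. Named peaks were the 10 widest, the 5 richest clusters (and 1 tied with the last), windows and longest stretches between O-GlcNAc peaks, the 5 farthest, the 5 most isolated and 3 on each side of 50 kb. The far peaks and the comparisons were chosen with earlier results of these data known, and widths, clusters and neighbours split by position near the centromere, the values by Mb from the centromere end and the O-GlcNAc peaks next to far OGA peaks were added after the values were seen. The unfed libraries were not analysed here.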

Additional observations from a re-analysis of the deposited data

How the results depend on the processing

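The far peaks kept their order against near peaks (fewer in number, narrower median, fewer with a neighbour within 10 kb, more near the centromere, lower density) in all 11 alternatives tried for each of these 5 values. The number of far peaks follows from the limit itself, so its order says little. Some alternatives hardly changed the set: distances between centres gave 532 far peaks again, and the 4 major arms alone gave 520. For a limit of 30 kb the number of far peaks was 846 and the share with a neighbour 55.0%, and for 100 kb the number was 261. Using only O-GlcNAc peaks with a WT 0 h signal per base at or above the median gave 916 far peaks, a share of 57.8% and a density ratio of 0.342. Merging OGA peaks closer than 500 bp gave a share of 41.1%, and 20.5% of far peaks in clusters of 3 or more. A cluster gap of 5 kb gave 21.4% in such clusters and one of 20 kb 42.9%. Leaving out OGA peaks of 1 bp gave a median width of 17 bp. Leaving out 2R gave a density ratio of 0.228, and leaving out 3R gave 0.301 and a share of 39.1% near the centromere. The number of windows with 5 or more far peaks was 14 to 17. No paired analysis was possible because both ChIP-seq libraries share 1 list and each O-GlcNAc column combines both replicates; for the same reason no replicate could be left out.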
